A study of Mus musculus with 2 samples.

Results

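The 74 genes described here encode histones of the mouse, and further variant histone genes are given apart at the end. Histone TPM and histone reads below mean those of these 74 genes. Of these, 67 are replication-dependent genes, recognised by a symbol that begins with Hist1h, Hist2h, Hist3h or Hist4h, and 7 are the variant histone genes H3f3a, H3f3b, H2afx, H2afy, H2afz, H2afv and H1f0. Each had at least 1 protein-coding transcript in the deposited transcript tables and a row in the gene tables of both libraries, out of 55450 gene rows and 21938 nuclear protein-coding genes. The 67 clustered genes comprised 6 genes of the linker histone H1, 18 of H2A, 18 of H2B, 12 of H3 and 13 of H4. In assembly mm10, 54 of them lie on chromosome 13 between positions 21715763 and 23934851, 10 on chromosome 3 between 96219865 and 96270132, 2 on chromosome 11 and 1 on chromosome 6.

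The tissue was left cerebral cortex, from 10-day-old female mice of the strain B6CASTF1/J, a cross of C57BL/6J and CAST/EiJ, and the assay was total RNA sequencing. The labels name 2 females as biological replicates 1 and 2 of 1 untreated group, and each library started from 300 ng of RNA, to which synthetic ERCC transcripts were added. Their descriptions give 2 differently numbered females and separate biosamples, but both carry the same donor identifier, so the spread over 2 animals rests on these descriptions. The design therefore holds no contrast between groups, and the values below describe levels, their spread over these 2 animals, and their dependence on how reads were assigned to genes. No test is given for any of them, since a single group of 2 has nothing to be tested against.

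Replication-dependent histone genes supply the octamer proteins H2A, H2B, H3 and H4 and the linker H1 that package newly made DNA in S phase. Their messages usually lack introns and end, not in a poly(A) tail, but just after a short stem-loop that the stem-loop binding protein recognises. Variant histones are made throughout the cell cycle, mostly from polyadenylated messages, and of the 7 genes here all but H1f0 and H2afx have introns. Variant histones are thus also available to neurons, which no longer divide. H3f3a and H3f3b both encode H3.3, H2afz and H2afv encode the H2A.Z forms, H2afy encodes macroH2A1, H2afx encodes H2A.X, which is phosphorylated at DNA breaks, and H1f0 encodes the linker H1.0.

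The gene tables held 29990965 estimated reads in replicate 1 and 31156256 in replicate 2, of which the 74 histone genes took 0.102% and 0.108%. The projection neuron markers Slc17a7, Neurod6, Tbr1 and Nrgn were detected, with 521.61 and 501.30 TPM for Slc17a7 and 887.21 and 1094.48 TPM for Nrgn in the replicates (TPM is a share of all transcripts, corrected for transcript length). So were the markers of astrocytes, oligodendrocyte precursors, microglia and endothelium. The testis germ cell genes Prm1 and Tnp1 had no reads, and Ddx4 stood at 0.41 and 0.28 TPM. The tissue is a mixture, so that fewer cells of a type and less RNA per cell cannot be told apart. The oligodendrocyte markers Mbp (90.02 and 180.83 TPM), Mag (13.34 and 30.01) and Mog (1.83 and 4.53) were all higher in replicate 2.

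The stem-loop shows how the clustered messages are built and how the classes differ. A 16-base pattern was searched on the sense strand only: a stem of GG opposite CC, then any 3 pairs (G-T included), then a T-A pair, around a loop of any 4 bases. It was sought after the stop codon of each annotated GENCODE M21 transcript. It was found in 46 of the 67 clustered genes, 21 to 58 bases after the stop codon with a median of 31 bases. Within 100 bases of the stop codon, 48 of 55 clustered transcripts with at least 20 annotated bases there held it, or 87.3%, against 0.156% of 44140 other protein-coding transcripts. The forms printed here have 5 flanking bases in lower case and the stem-loop in capitals, read 5′ to 3′ from the transcript, and are given because their spelling separates H4 from the other classes.
Hist1h2bg: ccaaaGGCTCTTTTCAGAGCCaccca
Hist1h3e: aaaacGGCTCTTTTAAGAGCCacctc
Hist2h2ac: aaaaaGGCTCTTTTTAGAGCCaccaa
Hist1h4d: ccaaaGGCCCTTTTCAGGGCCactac
Hist2h4: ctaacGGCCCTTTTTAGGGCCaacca
Hist1h4b: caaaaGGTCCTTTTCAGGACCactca
H2afx: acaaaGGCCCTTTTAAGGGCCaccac
All of these lie in 3′ untranslated regions of single-exon genes. In mm10 the stem-loop of Hist1h2bg occupies 23571843 to 23571858 on the plus strand of chromosome 13, and that of Hist1h4d occupies 23581950 to 23581965 on the same strand. Those of Hist2h2ac (96220418 to 96220433) and Hist2h4 (96262939 to 96262954) are on the minus strand of chromosome 3. The stem-loop of Hist1h3e is at 23561903 to 23561918 on the minus strand of chromosome 13, that of Hist1h4b at 23757366 to 23757381 on its plus strand, and that of H2afx at 44335240 to 44335255 on the plus strand of chromosome 9.

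The form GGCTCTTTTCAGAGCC, as in Hist1h2bg, was shared by 26 genes, namely 3 of H1, 10 of H2A, 8 of H2B and 5 of H3. The form of Hist1h3e occurred in 6 genes, and the forms of Hist2h2ac and of Hist1h3g in 1 gene each. None of the 12 H4 loops had any of these spellings. The form of Hist1h4d was found in 7 H4 genes, those of Hist2h4 and of Hist1h4b in 2 each, and 1 further form in Hist1h4a. H2afx was the only variant gene of the 7 with the pattern, 46 bases after its stop codon, where it carried the stem bases seen in H4.

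Where the pattern was absent, the annotated transcript mostly ended soon after the stop codon. Of the 21 clustered genes without a loop, 17 had fewer than 50 annotated bases after the stop codon in any transcript. The other 4 were H2B genes, Hist1h2bc, Hist2h2be, Hist1h2bq and Hist1h2br. The transcript of Hist1h2bc is spliced, as are the transcripts of Hist1h2bq and Hist1h2br that reach further. These models matter for the levels below, since the annotated length enters every TPM value. By annotation, 15.1% of the clustered TPM fell in transcripts that end within 30 bases after the loop, 53.4% in transcripts that run further and 31.5% in transcripts with no annotated loop. Since 62 of the 67 clustered genes have 1 annotated transcript, these shares describe the annotation and not where the RNA ended.

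**Figure D1:**
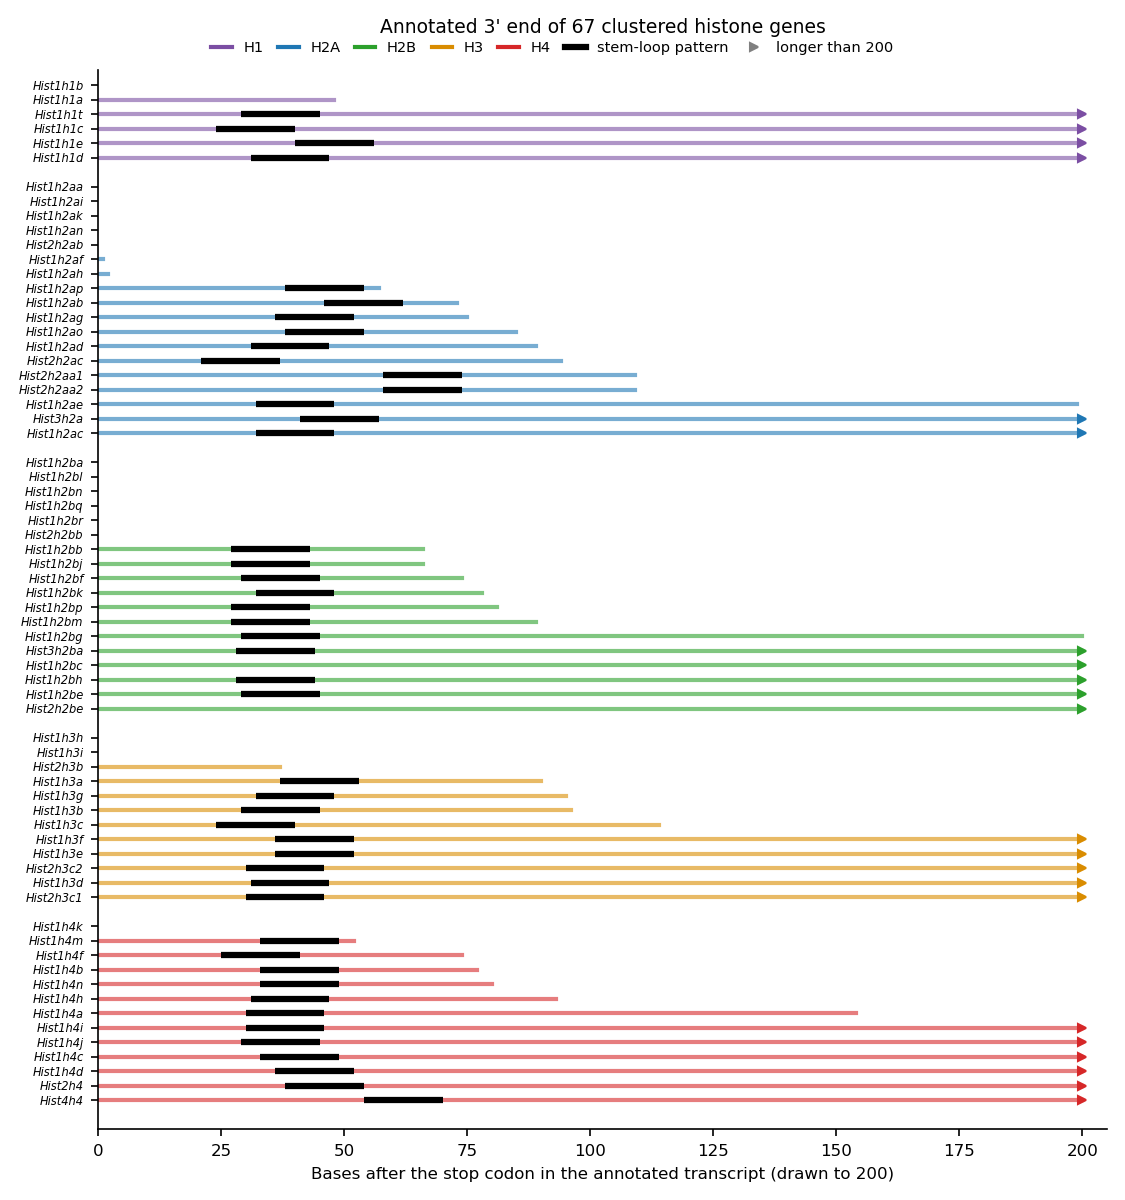
Each line is 1 of 67 clustered histone genes, drawn for its transcript with the most TPM in replicate 1, and the x axis gives bases after the stop codon up to 200. Black bars mark the stem-loop pattern, which starts 21 to 58 bases after the stop codon in 46 genes, and genes with little or no coloured line have no annotated sequence in which to find it.

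Most histone genes were detected in the cortex at this age. At 1 TPM or more in both libraries, 67 of 74 passed, or 60 of 67 clustered genes and all 7 variant genes, against 59.2% of all nuclear protein-coding genes. Clustered genes spanned a wide range, with 30 at a mean above 20 TPM and 30 more detected between 1 and 20 TPM. The lowest variant gene, H2afv, stood at 13.12 and 13.93 TPM, close to the median of 16.1 TPM over the 67 clustered genes.

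Of the 7 genes that were not detected, 4 had no reads in either library, and they are of different kinds. Hist1h2aa and Hist1h2ba, the neighbouring testis H2A and H2B genes, had 0 reads, for which a count of 0 allows up to 3 reads, or 0.551 and 0.503 TPM for Hist1h2aa. Hist1h1t, the testis linker histone, had 0 reads in replicate 1 and 1 read in replicate 2. Hist2h3c1 and Hist1h2ao also had 0 reads, but their sequence is shared. All 1726 windows of 100 bases in Hist2h3c1 also occur in genes outside the 74, and it overlaps Gm20634 (206.8 and 214.7 reads) on the same strand. For Hist1h2ao, 92.7% of its 100-base windows also occur in Hist1h2ap, and the upper bounds of its deposited credible intervals were 23.6 and 16.1 TPM. A 0 for either gene is therefore no measure of its absence. The remaining genes lay at the limit, Hist2h2be with 1.46 and 0.93 TPM and Hist1h2bh with 0.69 and 1.44 TPM.

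**Figure D2:**
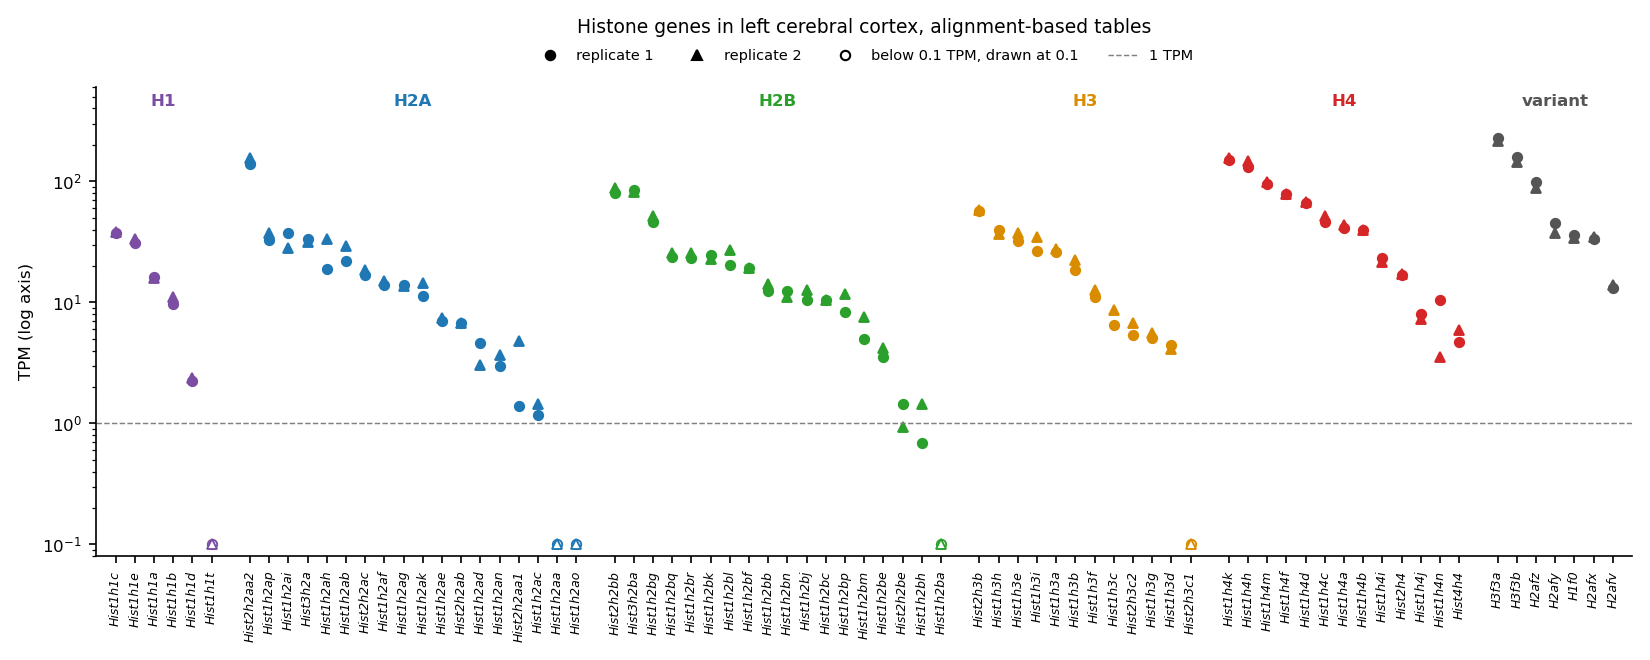
TPM on a log axis for the 74 histone genes, sorted within each class, with circles for replicate 1 and triangles for replicate 2; open symbols are values below 0.1 TPM and the dashed line marks 1 TPM. The symbols of the 2 animals overlap for most genes, and Hist1h4n and Hist2h2aa1 are among the few where they separate.

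The variant genes were led by the H3.3 genes. H3f3a had 230.28 TPM in replicate 1 and 215.06 in replicate 2, the highest level of any histone gene. H3f3b had 158.02 and 144.62 TPM, so that H3f3b was below H3f3a in both animals, with a log2 ratio of -0.56 ± 0.02 (SD, n = 2). Both genes were lower in replicate 2 on the TPM scale, as was H2afz, with 99.07 and 88.22 TPM. H2afz exceeded H2afv by 2.78 ± 0.18 on the log2 scale, a 6.87-fold difference in level between the H2A.Z genes. The macroH2A1 gene H2afy had 45.45 and 37.39 TPM and the H2A.X gene H2afx 33.37 and 34.81 TPM. Their ratio had the same sign in both animals but was within 2 SD (log2 ratio 0.27 ± 0.24). The order of H2afy and H2afx by gene sum was therefore not resolved. The H2afy sum includes noncoding-annotated transcripts. Its coding transcripts H2afy-201 (10.24 and 12.78 TPM) and H2afy-202 (6.48 and 6.12 TPM) were each below H2afx. H1f0 had 36.21 and 34.16 TPM.

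By gene sums in the alignment-based tables, H3 stood apart from H2A and H1 when set against the clustered genes of the same class. The H3.3 genes together had 388.3 and 359.7 TPM and the 12 clustered H3 genes together 233.1 and 254.6 TPM. The H3.3 gene sum thus exceeded the clustered H3 sum by 0.62 ± 0.17 on the log2 scale. The H3.3 sum includes noncoding-annotated transcripts, among them H3f3b-204 with 78.21 and 78.84 TPM. The coding H3f3b-201 had 68.84 and 56.93 TPM. A ratio over coding transcripts alone was not computed, so the 0.62 does not order coding H3.3 RNA against clustered H3. The H2A sums stood in the reverse order. The summed H2A.Z genes had 112.2 and 102.2 TPM against 362.6 and 402.7 TPM for the 18 clustered H2A genes, a log2 ratio of -1.83 ± 0.20. H2afx was 11.2-fold below the same clustered sum. H1f0 was below the sum of the 6 clustered H1 genes, with a log2 ratio of -1.48 ± 0.11, and its ratio to Hist1h1c alone was within 2 SD (-0.10 ± 0.07). These ratios compare RNA summed over all annotated transcripts of each gene, and not proteins. Of the 9 ratios examined, 7 exceeded 2 SD, all on TPM + 0.1.

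Several variant genes spread their TPM over more than 1 annotated transcript. For H3f3a, transcript H3f3a-201 held 53.1% ± 0.61 of the TPM and H3f3a-207 36.8% ± 0.75. The alignment-free tables reversed this order, with 31.0% ± 0.07 and 63.2% ± 0.48. H3f3b was divided between the noncoding-annotated H3f3b-204 (52.0% ± 3.55) and the coding H3f3b-201 (41.5% ± 2.97). In the alignment-free tables H3f3b-201 held none and H3f3b-202 held 46.7% ± 1.05, so the coding form of H3f3b depended on how the reads were assigned. H2afz was simpler, with 93.5% ± 2.39 in H2afz-201. For H2afy the coding H2afy-201 took 22.5% in replicate 1 and 34.2% in replicate 2, and the coding H2afy-202 took 14.3% and 16.4%, and the rest fell in noncoding annotated forms.

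The coding sequences of the H3 genes differ far more between H3.3 and the clustered genes than among the clustered genes. Pairwise identity among the 12 clustered H3 coding sequences ran from 93.7% to 100%, with a median of 97.2%. H3f3a matched H3f3b at 76.9% of coding bases and the clustered H3 genes at 77.1% to 78.1%. The first 60 coding bases of 4 H3 genes are shown because they show these differences, with bases that differ from H3f3a in capitals and sequences from the GENCODE M21 transcripts.
H3f3a: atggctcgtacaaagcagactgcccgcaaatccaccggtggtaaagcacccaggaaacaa
H3f3b: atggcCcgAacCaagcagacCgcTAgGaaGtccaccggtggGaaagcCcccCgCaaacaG
Hist2h3b: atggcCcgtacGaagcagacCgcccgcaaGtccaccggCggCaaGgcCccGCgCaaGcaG
Hist1h3e: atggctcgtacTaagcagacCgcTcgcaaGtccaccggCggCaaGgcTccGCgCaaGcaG
Each of the 3 other sequences differs from H3f3a at 13 of 60 positions. H3f3b matched the clustered H3 genes at 80.5% to 81.8% of coding bases, closer than it matched H3f3a. Of the 100-base windows of H3f3a and H3f3b, 94.4% and 98.1% occur in no other gene. H3f3a lies on chromosome 1 (180800832 to 180813943, minus strand) and H3f3b on chromosome 11 (116021912 to 116027962, minus strand).

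Among the clustered genes, H4 had the most TPM in the alignment-based tables. The 13 H4 genes summed to 712.3 and 740.4 TPM, or 39.2% ± 0.76 of the clustered total. H2B followed with 387.6 and 415.8 TPM and H2A with 362.6 and 402.7, and these classes overlapped. H3 had 233.1 and 254.6 TPM and H1 96.3 and 100.8 TPM, each separated from its neighbours in this order by more than the spread of the 2 animals. All 67 genes together reached 1853 ± 86.5 TPM, against 592 ± 33.5 TPM for the 7 variant genes. The clustered genes thus made up 75.8% ± 1.89 of histone TPM, but 60.1% ± 2.26 of histone reads, a measure that is not divided by transcript length. In the alignment-free tables they made up 45.5% ± 2.72 of histone reads, so whether they outnumbered the variant genes by reads depended on the table.

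A few genes carried much of the clustered total. The 10 highest held 51.6% of it, and 5 of these 10 were H4 genes. Hist1h4k had 150.74 and 156.30 TPM, Hist1h4h 130.51 and 148.19, and Hist1h4m 95.93 and 99.62. Hist1h4f had 78.34 and 79.18 TPM and Hist1h4d 66.15 and 67.23 TPM. Their animals lay close together, but the reads behind these levels differed. Hist1h4k, whose annotated transcript holds only its coding sequence, had 601.1 and 681.7 reads, and Hist1h4d, with a 1138-base transcript, had 1286.8 and 1430.3. By TPM Hist1h4k ranked 2 among all 74 genes, by reads 15. By mean TPM in these tables the lowest H4 gene was Hist4h4 on chromosome 6, with 4.73 and 5.87 TPM, although Hist1h4n was lower in replicate 2 (10.48 and 3.51 TPM).

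In the H2A class the alignment-based tables put Hist2h2aa2 on chromosome 3 highest, with 138.40 and 154.76 TPM, although it cannot be told apart from its copy Hist2h2aa1, which took all of the reads of this pair in the alignment-free tables. By alignment the next genes, Hist1h2ap (32.76 and 37.16), Hist1h2ai (37.59 and 28.18) and Hist3h2a (33.27 and 31.79), were far below it. Hist1h2ah varied more, with 18.70 and 33.19 TPM. Only 7.8% of the windows of Hist1h2ap and 11.6% of those of Hist1h2ai occur in no other gene, against 70.2% for Hist3h2a. Hist1h2ad had 4.64 and 3.04 TPM by alignment. In the alignment-free tables Hist1h2ad had 110.4 and 109.5 TPM, below only Hist2h2aa1 in this class. By alignment the H2B class was led by Hist2h2bb with 79.67 and 87.80 TPM and by Hist3h2ba, the chromosome 11 gene, with 84.77 and 81.17 TPM. These overlap and cannot be ordered by alignment. Below them came Hist1h2bg with 46.36 and 51.85 TPM, and Hist1h2bq and Hist1h2br, close copies of each other, with 47.27 and 51.22 TPM in sum. In the alignment-free tables Hist3h2ba had 86.7 and 83.6 TPM, Hist1h2bf 58.6 and 66.1, and Hist2h2bb 31.2 and 53.8. Hist1h2bq and Hist1h2br had 19.4 and 0.663 TPM in sum there.

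By alignment the H3 genes were led by Hist2h3b with 57.33 and 58.14 TPM, above Hist1h3h (39.88 and 36.76). Only 22.9% of the windows of Hist2h3b and 8.0% of those of Hist1h3h occur in no other gene. In the alignment-free tables Hist1h3h had 26.2 and 40.0 TPM. Hist1h3e had 32.06 and 37.31 TPM, Hist1h3i 26.38 and 34.73, and Hist1h3a 26.30 and 27.52. By alignment Hist1h3e was above Hist1h3a in both animals without overlap, and the values of Hist1h3i overlapped those of both. The alignment-free tables reversed the order of Hist1h3e (24.8 and 34.1 TPM) and Hist1h3a (40.5 and 43.3). Hist2h3b also led there with 102.7 and 112.8 TPM. It was followed by Hist1h3b with 58.5 and 83.1, against 18.46 and 22.45 by alignment. By alignment the linker genes were led by Hist1h1c with 37.46 and 37.98 TPM and Hist1h1e with 30.82 and 33.30 TPM. Both were above Hist1h1a (16.22 and 16.05), Hist1h1b (9.62 and 11.07) and Hist1h1d (2.22 and 2.35). The annotated model matters most for Hist1h1d. It ranked 66 of 74 by TPM and 24 by reads, with 304.9 and 352.3 reads spread over a long annotated transcript.

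Near-identical copies limit what can be said of single genes. A 100-base window of a transcript was called unique if no other gene's transcripts held it. Fewer than 20% of windows were unique in 13 of the 74 genes and over 90% in 22. None of the windows of Hist2h2aa2 was unique, since Hist2h2aa1 contains them all. The alignment-based tables gave Hist2h2aa2 1111.6 and 1359.4 reads and Hist2h2aa1 12.7 and 48.1. The alignment-free tables gave Hist2h2aa2 no reads and Hist2h2aa1 973.9 and 1187.5. The sum of the 2 genes was 149.7 ± 14.0 TPM by alignment and 281 ± 32.0 TPM without. All 429 windows of Hist2h2aa2 and 430 of the 487 of Hist2h2aa1 also occur in genes outside the 74, so even the sum may not be complete. In addition, 28 of the 74 genes overlap another annotated gene, 9 of them one with at least 20 reads, and no source used here says whether the counting used strand. Hist1h1e and Hist1h2be overlap on the same strand, and Hist1h2be had 158.0 and 202.7 reads by alignment but 594.6 and 716.7 without it.

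The alignment-based and alignment-free tables disagreed on histone genes, by reads most on H4. Over all genes the alignment-free TPM was higher by a median of 0.62 on the log2 scale, and over the histone genes by 0.39. Before any adjustment for that shift, 27 of 69 histone genes at 1 TPM or more in either table were at least 2-fold apart, 16 higher and 11 lower without alignment, against 22.6% of all genes and 12.7% of protein-coding genes. After TPM was rescaled over protein-coding genes in both tables, which moved the median of all genes to -0.06, the count was 29 of 69, with 10 higher and 19 lower, against 4.28% of protein-coding genes.

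Reads showed the same split without any division by length. The alignment-free tables gave at least 2-fold fewer reads to 31 of 68 histone genes with a mean of 20 reads or more, against 0.733% of protein-coding genes. At least 2-fold more went to 4 genes, against 0.919%. The 31 comprised 11 of 13 H4 genes, 9 of 17 H2B, 8 of 15 H2A, 3 of 11 H3, 0 of 5 H1 and 0 of 7 variant genes. The H4 class had 6125 and 6991 reads by alignment and 1389 and 1716 without, a 4.22-fold difference in the means. For the variant genes the alignment-based mean was 0.961 of the alignment-free mean. Replicate 1 and replicate 2 agreed on the side of every such gap in the class sums.

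**Figure D3:**
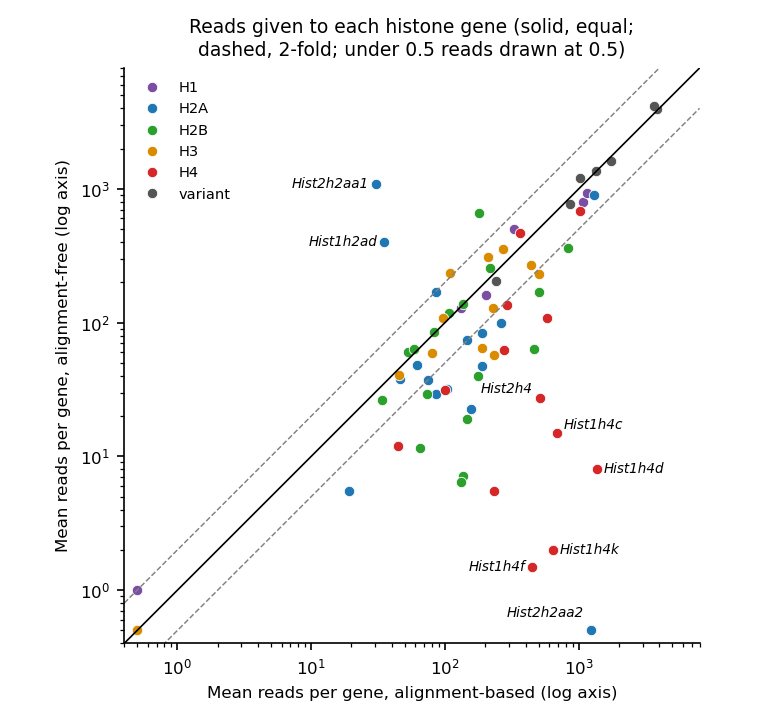
Mean reads over 2 animals for each histone gene in the alignment-based tables (x) and the alignment-free tables (y), both on log axes, coloured by class, with lines for equality and a 2-fold difference. The variant genes lie near the line of equality, while Hist1h4d, Hist1h4k, Hist1h4f and Hist1h4c (red) lie far below it.

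The gap in H4 included genes with no shared 100-base windows, though their coding sequences remain similar to those of other H4 genes. Hist1h4d matched Hist1h4j at 94.2% of coding bases, and Hist2h4 matched Hist1h4k at 91.0%. Hist1h4d and Hist2h4, all of whose 100-base windows are unique, had 1286.8 and 1430.3 and 486.0 and 537.0 reads by alignment and 6 and 10 and 23 and 32 reads without. Hist1h4c, with 86.0% unique windows, had 626.1 and 756.5 reads against 10 and 20. Hist1h4k had 601.1 and 681.7 against 1 and 3, and Hist1h4f 428.3 and 473.4 against 0 and 3. Hist1h4a went the other way, with 338.7 and 394.7 reads by alignment and 491.9 and 442.2 without, with 42.5 ± 1.90 and 148 ± 15.1 TPM. Hist1h4h kept a large part of its reads, with 906.5 and 1125.7 against 561.8 and 793.3.

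Other short transcripts were also given fewer reads in the alignment-free tables. Among protein-coding genes with 1 transcript under 500 bases, the alignment-free reads were a median of 31.5% of the alignment-based reads in 16 other genes and 26.8% in 23 clustered histone genes. At 500 to 1000 bases the medians were 81.1% in 95 other genes and 74.3% in 21 clustered genes, and at 1000 to 2000 bases 97.8% and 80.6%. From 2000 bases on they were 107% in 919 other genes and 73.4% in 8 clustered genes. Clustered genes were placed by their longest transcript, including those with several transcripts. Among the 8 were Hist1h2bq and Hist1h2br, with 98.3% and 99.98% of their alignment-based TPM in 381-base transcripts. Their alignment-free over alignment-based reads were 0.130 and 0.0526, so the median of the 8 genes does not describe long transcripts alone. The tables also used different effective lengths, 213 bases for Hist1h4k by alignment against 69.1 and 69.3 bases without. Hist1h4d, Hist2h4 and Hist1h4c are longer than 500 bases. What part transcript length, the effective length or sequence identity had in the gap was not tested.

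The order of the classes changed with the table. In alignment-free TPM, H2A was highest with 627.4 and 724.3, ahead of H4 with 489.5 and 595.0, H2B with 392.8 and 455.9, and H3 with 363.2 and 438.6. H4 held 24.9% ± 0.56 of the clustered TPM there, against 39.2% by alignment. The clustered share of histone TPM was 68.3% ± 2.74. Only 4 of the 10 highest clustered genes were shared by the tables. Summed over all annotated transcripts, the H3.3 genes exceeded the clustered H3 sum in both tables. The H2A.Z genes were below the clustered H2A sum in both. H1f0 exceeded Hist1h1c in the alignment-free tables (log2 ratio 0.28 ± 0.06), the opposite of the alignment-based sign.

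**Figure D4:**
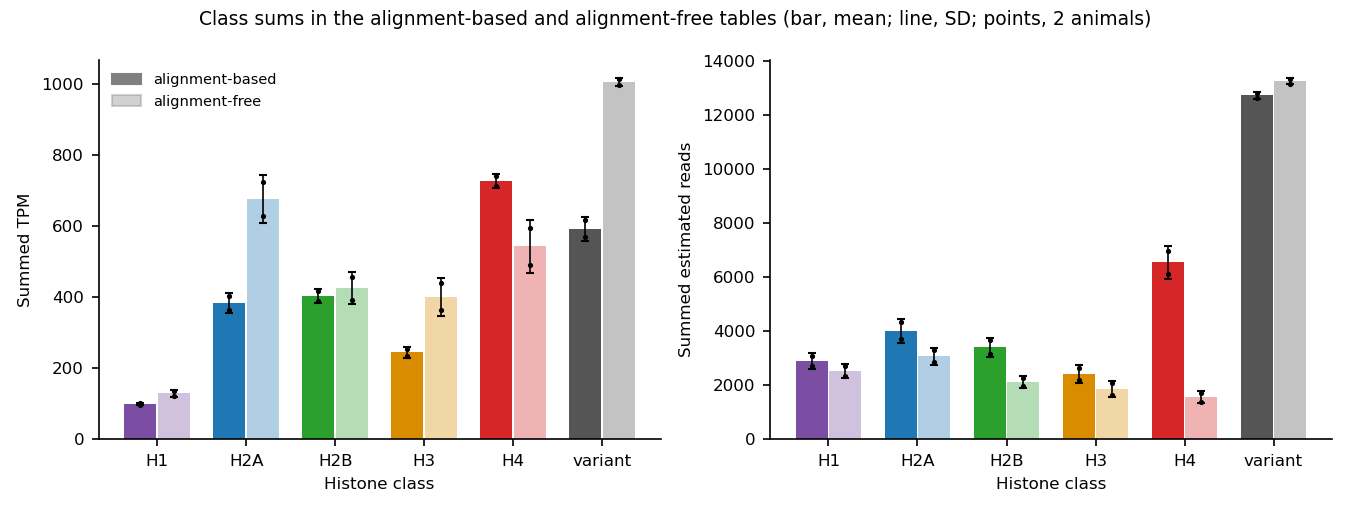
Summed TPM (left) and summed estimated reads (right) for each histone class in the alignment-based tables (full colour) and the alignment-free tables (pale), with bars for the mean, lines for the SD and points for the 2 animals. H4 has 6125 and 6991 reads by alignment and 1389 and 1716 without, and the alignment-based mean of the variant genes is 0.961 of the alignment-free mean.

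Between the animals, single genes were mostly close. After scaling of reads with TMM factors, 3 of 68 histone genes with a mean of 20 reads or more were at least 2-fold apart, against 1.42% of all genes. At 1.5-fold the count was 6 of 68, against 6.02%. The 3 genes were thinly counted. Hist1h4n had 64.9 and 23.8 reads and 19.3% unique windows, and with its copy Hist1h4m it summed to 106.4 and 103.1 TPM. Hist2h2aa1 had 12.7 and 48.1 reads and is the minor partner of Hist2h2aa2, as above. Hist1h2bh had 20.6 and 46.7 reads. None of the 51 histone genes with a mean of 100 reads or more reached 2-fold, against 0.355% of all genes at that depth.

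The clustered genes as a list were slightly higher in replicate 2, which the variant genes were not. The median log2 ratio of replicate 2 over replicate 1 was 0.23 over 61 clustered genes and 0.03 over the 7 variant genes, against 0.01 over 16448 genes. The ratio was above 0 for 52 of 61 clustered genes and for 52.3% of all genes. Among 13922 nuclear protein-coding genes the median was 0.02, with 7818 above 0. Restricting the list to 39 clustered genes with 50% or more unique windows left the median at 0.23, with 35 of 39 above 0. By class the medians were 0.19 for H1, 0.25 for H2A, 0.25 for H2B, 0.29 for H3 and 0.14 for H4. The S phase and division genes had a median of 0.04, and histone processing genes -0.01. Markers of some other cells differed between the animals in the same direction. The log2 ratio was 0.96 for Mbp, 1.41 for Mag and 1.42 for Mog, and the median over 5 erythroid markers was 0.42. Among projection neuron markers it was 0.06 for Slc17a7, 0.23 for Neurod6, 0.17 for Tbr1 and 0.42 for Nrgn. Medians were 0.03 over 4 astrocyte, 0.01 over 3 microglial, 0.12 over 3 endothelial and 0.15 over 4 oligodendrocyte precursor markers. Their part in the histone shift was not tested. A ratio of 1 animal to 1 animal has no replicate check.

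**Figure D5:**
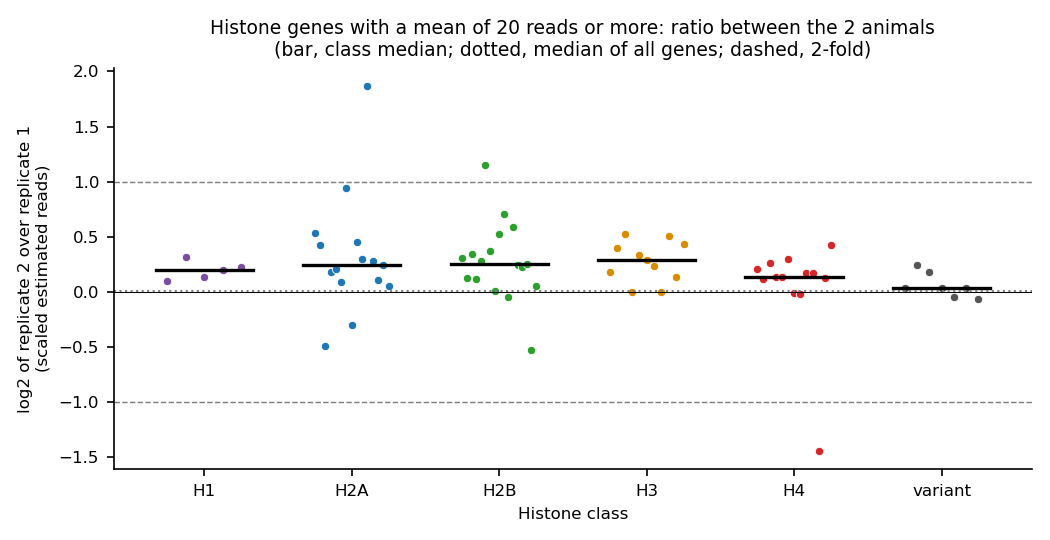
Log2 of TMM-scaled reads in replicate 2 over replicate 1 for 68 histone genes by class, with black bars for class medians, a dotted line for the median of all genes and dashed lines at 2-fold. The class medians of the clustered genes lie between 0.14 and 0.29 and that of the variant genes at 0.03, and only Hist2h2aa1, Hist1h2bh and Hist1h4n pass the dashed lines.

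The genes that make, process and load histones were mostly detected. Of 15 genes of histone pre-mRNA processing found in the tables, 14 were at 1 TPM or more in both libraries. The highest were Srrt, a cap-associated factor, with 81.13 and 70.99 TPM, Lsm11, a protein of the U7 particle that cuts histone pre-mRNA, with 62.92 and 70.93 TPM, and Cstf2, a cleavage factor subunit, with 64.58 and 57.82 TPM. The lowest was Zfp473, a U7-associated zinc finger protein, at 0.39 and 0.20 TPM. Slbp, the stem-loop binding protein, which was singled out after its values were seen, had 14.27 and 12.55 TPM.

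Of 14 H3-H4 chaperone genes, 12 were detected. Atrx, which with Daxx deposits H3.3 at repeats, led with 108.46 and 100.01 TPM, followed by the histone-binding genes Rbbp7 (79.79 and 71.99) and Rbbp4 (66.00 and 60.23). Asf1b (0.54 and 0.62 TPM) and the replication-coupled chaperone subunit Chaf1b (1.16 and 0.93 TPM) were not detected. All 13 genes of H2A exchange were detected, from Ino80 at 10.21 and 9.85 TPM to the nucleosome assembly gene Nap1l1 at 116.70 and 102.26 TPM. Nap1l4 had 72.35 and 68.08 TPM, and Anp32e, a chaperone that removes H2A.Z, had 52.39 and 50.12 TPM. Among genes of these 3 lists with at least 20 reads on average, none was 1.5-fold apart between the animals.

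All 18 S phase and division genes were detected at low levels. Pcna, the sliding clamp of DNA replication, led with 28.18 and 28.67 TPM, and the helicase genes Mcm7 (7.89 and 7.39) and Mcm6 (7.69 and 7.03) came next. The lowest was the mitotic cyclin gene Ccnb1 with 1.91 and 1.94 TPM. The median over the 18 genes was 4.43 TPM, against 16.1 TPM over the 67 clustered histone genes. Of 11 further variant histone genes found, H1fx (34.83 and 35.30 TPM), H2afy2 (29.36 and 29.22) and H2afj (22.43 and 26.47) were the highest and Cenpa, the centromeric H3, was also detected. The other 7, among them the oocyte gene H1foo and the spermatid gene Hils1, had no reads.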

How the data were processed

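Total RNA of 2 female mice of 1 group was measured. The deposited gene and transcript tables hold expected counts and TPM that the authors derived from transcriptome alignments, with credible interval bounds; per the deposited README files the assembly was mm10 and the annotation M21. Further deposited tables hold estimated counts and TPM made straight from reads. No source used here names the tools. Whether the females were littermates is not given either, so the spread may be partly technical, and alleles were not separated.

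Members, lists and alternatives were chosen with earlier results of these data known. Members were found by symbol and transcript type. Alignment-free values were summed per gene. Levels are means ± SD of TPM. Pair ratios are log2(TPM + 0.1), called beyond the spread when both libraries had 1 sign and the mean exceeded 2 SD. Ratios between libraries used edgeR 4.0.16 TMM factors on counts with 0.5 added. The common biological coefficient of variation (rounded counts, intercept-only design) was 7.53%, and its median per gene was 7.98% over all genes and 10.5% over histone genes. DESeq2 1.42.0 gave size factors in an alternative. Other tools were R 4.3.3, limma 3.58.1, Python 3.11.15, numpy 2.4.6, pandas 2.3.3 and matplotlib 3.10.9. On simulated data for replicate 2 against replicate 1 over 55450 genes, 48 of 50 genes changed 3-fold were called at the 2-fold limit, and 34 of 16278 unchanged ones. The simulation set a coefficient of variation of 8% for every gene, below the histone median. Its genes were drawn independently, so it does not cover reads shared between copies.

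With 0 reads, up to 3 remain possible at 95% confidence (counting error only), or 0.160 and 0.147 TPM for 1 kb. Named genes are the variant genes, the 5 highest and the lowest of each clustered class, members 2-fold apart between libraries or (at 5 TPM or more) between tables, members at 0, the paired genes, and the 3 highest and the lowest of each list; the text names those it needs. Zcchc11, Zcchc6 and H3f3c were not matched by symbol. Some listed marker genes are not reported here.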

Additional observations from a re-analysis of the deposited data

Results flagged for a closer look

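Of 3 further genes whose symbols fit the histone pattern but whose transcripts are annotated as pseudogenes, 2 had reads, and they enter no result above. Hist1h2al, annotated as a processed pseudogene on chromosome 13 at 51202727 to 51203065, had 155.69 reads in replicate 1 and 186.7 in replicate 2, or 36.3 ± 2.36 TPM, which is a level like that of Hist1h2ap. The alignment-free tables gave it no reads. Hist3h2bb-ps on chromosome 11 had 75.66 and 87.05 reads, or 11.3 ± 0.41 TPM, and 122.5 and 142.6 reads without alignment. Hist1h2aj had no reads in any table. How the reads of these genes relate to their coding copies was not tested.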

How the results depend on the processing

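No paired analysis was possible because both libraries belong to 1 group. Of 102 recomputed values, 74 counted as unchanged, 26 as moved, 1 as stronger and 1 as reversed. Unchanged meant within 1.5-fold for counts, within 1 SD for sums and shares, and the same to 2 decimals for the median ratio. For pair ratios under other settings it meant the same sign and side of 2 SD. Every change of pseudocount was unchanged. So were all 38 values made without 1 library, but most of these could not fail. With 2 libraries, either value lies within 1 SD of their mean. In alignment-free TPM the sums moved to 2172 for the clustered genes, 129 for H1, 676 for H2A, 424 for H2B, 401 for H3 and 542 for H4, and the clustered share to 68.3%. With TPM rescaled over protein-coding genes they were 3740, 199, 773, 811, 492 and 1466. By reads the clustered share was 60.1%. In the alignment-free tables H2afy over H2afx passed 2 SD (0.51) and H1f0 over Hist1h1c reversed (0.28), and the cause was not tested. Genes 2-fold apart between libraries numbered 3, but 0 at 100 reads or more, 6 at 1.5-fold and 1 in the alignment-free tables. The median ratio between libraries of 0.20 became 0.21 with DESeq2 size factors, 0.16 with total counts, 0.18 at 100 reads or more and 0.21 with no minimum. Between tables, 14 of 69 genes were 4-fold apart in place of 27 at 2-fold. At 4-fold the shares were 11.2% of all genes and 2.74% of protein-coding genes. TPM in transcripts that run past the loop was 66.0% without alignment. Alternatives chosen after seeing the data gave 27.9% with a limit of 100 bases after the loop, a median ratio of 0.28 in the alignment-free tables and 0.23 over clustered genes with 50% or more unique windows. Depth limits the genes under 20 reads, which enter ratios between libraries only where no minimum is set.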
